A study of Homo sapiens with 24 samples.

Results

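The AP-1 and immediate early transcription factors were followed across a time course of vitamin D hormone in RWPE1, an immortalized but non-tumorigenic line of human prostate epithelial cells. The group was defined by name as FOS, FOSB, FOSL1, FOSL2, JUN, JUNB, JUND, ATF3, EGR1 and MYC. All 10 genes were on the array, with 24 probe sets annotated to only one of these symbols among 54613 probe sets other than controls. A probe set is a group of short probes that report on one transcript, and its level cannot be set against that of another probe set. Of the 24 probe sets 20 passed the filter on dim values, for 9 of the 10 genes. FOSB was the gene without a tested probe set.

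The study asked how transcript levels in these cells changed over time under 1,25(OH)2D, the active hormone made from vitamin D. Flasks of cells at partial confluence were given 1,25(OH)2D at 100 nM, or ethanol at 0.1% as vehicle. RNA was taken after 6, 24 or 48 h, which made 6 groups of 4 arrays, labelled as biological replicates. The 48 h cultures, treated and vehicle, had their medium replaced at 24 h, so fresh medium and a later time cannot be told apart in those groups. All cells were given medium with hormone or vehicle at the start. Time since that medium and time of treatment therefore cannot be told apart between 6 and 24 h either. All groups were this one line, so the values describe a single genotype, and nothing says whether the replicates were run on separate days. Values are log2 expression values, and a difference of 1 is a doubling.

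Genes that mark the treatment and the cells were read first. CYP24A1, the enzyme that breaks down 1,25(OH)2D and a classic target of its receptor, was between 3.48 and 4.51 on the 12 vehicle arrays and between 8.90 and 13.90 on the 12 treated arrays. KRT5 and KRT14, keratins of basal epithelium, had group means of 15.30 to 15.37 and 16.07 to 16.18, and KRT8 and KRT18 of luminal epithelium had group means of 12.58 to 13.33 and 14.30 to 14.50, while KLK2 and TMPRSS2, which mark differentiated luminal cells, stayed at or below 2.77. KLK3, the prostate-specific antigen of luminal cells, had group means of 3.80 to 4.18 and reached 5.20 on its highest array. All 4 leukocyte and all 4 neuroendocrine markers measured stayed below 6 on every array, as did 6 of 8 fibroblast and smooth muscle markers and 4 of 5 endothelial markers. The exceptions were COL1A1, with group means of 9.58 to 10.18, ACTA2, with 6.29 to 6.85, and KDR, which was 5.01 and 5.25 in vehicle but 3.60 and 3.67 with 1,25(OH)2D at 24 and 48 h. KRT15, another basal keratin, was 11.80 and 12.42 in vehicle and 10.28 and 10.50 with hormone at these times. CDH5, VWF and TEK, which define endothelium, were at or below 3.09 on every array, and PECAM1, another of its markers, had means of 3.53, 3.49 and 3.49 in vehicle and 3.79, 3.77 and 3.88 with hormone in order of time. Whether the KDR, PECAM1 and KRT15 differences have a part in the results was not tested. On the first component of the deviations from group means, which carried 71.9% of their variance, 4 arrays stood apart from their groups. In vehicle they were the arrays of replicate 1 at 6 h and of replicate 1 at 24 h, and with hormone those of replicates 1 and 4 at 24 h. Calls of members that change without these arrays, those of FOS and JUNB at 24 h and of JUN from 24 to 48 h, are given with both values, and the lists of other genes were not run without them.

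AP-1 is a dimer of leucine zipper proteins. Jun proteins pair with each other or with Fos proteins, which cannot pair among themselves, and the dimer binds a short DNA element to drive or restrain genes of proliferation, wound repair and epidermal differentiation. ATF3 is a related leucine zipper factor known as a stress response gene, EGR1 is a zinc finger factor induced by growth factors, and MYC is a helix-loop-helix factor that pairs with MAX and drives ribosome production and cell growth. Most of these genes are immediate early genes, which are transcribed within minutes of a stimulus without new protein synthesis and whose transcripts are short-lived. In prostate epithelium AP-1 is known for its part in growth factor signalling and in the basal cell program.

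Promoter windows are shown for FOS and JUNB, which rose with the hormone, and for EGR1 and JUN, which did not pass the test with it at any time. Each runs 5′ to 3′ on the gene's own strand from 250 bases before to 50 bases after the RefSeq start in GRCh38.p14. FOS lies at chr14:75278578-75278877 (plus strand), JUNB at chr19:12791236-12791535 (plus strand), EGR1 at chr5:138465229-138465528 (plus strand) and JUN at chr1:58783998-58784297 (minus strand). Capitals mark every match to a searched motif.
FOS: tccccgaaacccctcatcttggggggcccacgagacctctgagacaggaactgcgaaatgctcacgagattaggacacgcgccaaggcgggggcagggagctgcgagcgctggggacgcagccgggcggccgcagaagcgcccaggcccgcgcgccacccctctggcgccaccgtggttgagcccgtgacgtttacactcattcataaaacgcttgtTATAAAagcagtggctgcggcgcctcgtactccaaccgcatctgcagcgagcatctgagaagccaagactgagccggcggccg
JUNB: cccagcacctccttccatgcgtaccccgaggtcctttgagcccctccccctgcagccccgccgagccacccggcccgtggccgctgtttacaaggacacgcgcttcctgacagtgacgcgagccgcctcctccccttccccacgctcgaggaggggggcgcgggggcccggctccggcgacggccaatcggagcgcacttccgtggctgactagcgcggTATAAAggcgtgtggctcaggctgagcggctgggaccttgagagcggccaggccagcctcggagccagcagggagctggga
EGR1: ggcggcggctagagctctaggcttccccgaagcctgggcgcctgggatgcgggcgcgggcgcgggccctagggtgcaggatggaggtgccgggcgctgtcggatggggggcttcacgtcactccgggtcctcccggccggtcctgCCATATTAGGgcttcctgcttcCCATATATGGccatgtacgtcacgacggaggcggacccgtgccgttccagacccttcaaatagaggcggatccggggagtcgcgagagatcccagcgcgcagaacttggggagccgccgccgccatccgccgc
JUN: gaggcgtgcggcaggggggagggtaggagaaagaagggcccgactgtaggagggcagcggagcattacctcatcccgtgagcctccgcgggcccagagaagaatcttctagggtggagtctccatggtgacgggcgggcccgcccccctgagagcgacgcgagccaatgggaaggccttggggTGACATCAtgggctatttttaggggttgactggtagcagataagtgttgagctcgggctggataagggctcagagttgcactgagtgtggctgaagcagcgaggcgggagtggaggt

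The motifs, read on both strands, were the AP-1 element TGACTCA, the cAMP response element TGACGTCA, the AP-1-like element TGACATCA, the MYC E-box CACGTG, the CArG box bound by serum response factor, the DR3 element of the vitamin D receptor, and TATAAA. FOS held TATAAA at positions -33 to -28 from the start and JUNB at -31 to -26, a motif present in 11.5% of all 35116 RefSeq windows of this length. EGR1 held CArG boxes at -105 to -96 and -83 to -74, against 1.29% of all windows with at least one. JUN held TGACATCA at -67 to -60, against 2.61% of all windows. None of the 4 windows held the DR3 element, which was in 0.074% of all windows, or the AP-1 element, which was in 4.95%. Windows were read for 8 of the 10 genes, and not for FOSL1 or MYC. Windows on chromosome 8, which holds MYC, were left out when the members were looked up. Of the windows not printed, FOSB held TATAAA at -30 to -25, FOSL2 the AP-1 element at 5 to 11 past the start, JUND the cAMP response element (1.85% of all windows) at -200 to -193, and ATF3, which has a window for each of 2 starts, TGACATCA at -123 to -116 in one and TATAAA at -230 to -225 in the other. No window read for these 8 genes held the E-box, present in 7.26% of all. A match says only that these letters are present. The DR3 search took 1 strict pattern, rare in any window (0.074%), and read no bases beyond the windows. Its absence therefore does not show that a gene lacks an element for the vitamin D receptor.

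FOS, FOSL1 and JUNB rose with 1,25(OH)2D at 6 h and passed the test again at 48 h. Read by the brightest tested probe set of each gene, they were the only members to pass it at either time. A dimmer probe set of FOSL2, 218880_at, passed at 6 h. Among the called members FOS had the largest difference, 25.8-fold at 6 h. At 6 h 3 of 9 tested members were called, all upward, against 3.41% of all 12008 genes tested (2.37% upward and 1.04% downward). At 48 h the same 3 were called upward, against 12% of all genes (5.14% upward and 6.87% downward). At 24 h 0 of 9 were called, against 0.516% of all genes (0.325% upward and 0.192% downward). A call is an adjusted p under 0.05 in limma with Benjamini-Hochberg adjustment over all tested probe sets. At 24 h limma gave an unadjusted p under 0.05 for 3 members, FOS, FOSL1 and JUNB, a share not computed over all genes. The re-implemented SAM test called 2 members at 24 h, FOS and JUNB, as did limma with all 24 arrays in one fit. Of all 12008 genes SAM called 815 at 24 h and that fit 330. Over the 9 members the median log2 difference was 0.21, 0.09 and 0.16 in order of time, beside -0.03, 0.01 and -0.01 over all genes.

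**Figure D1:**
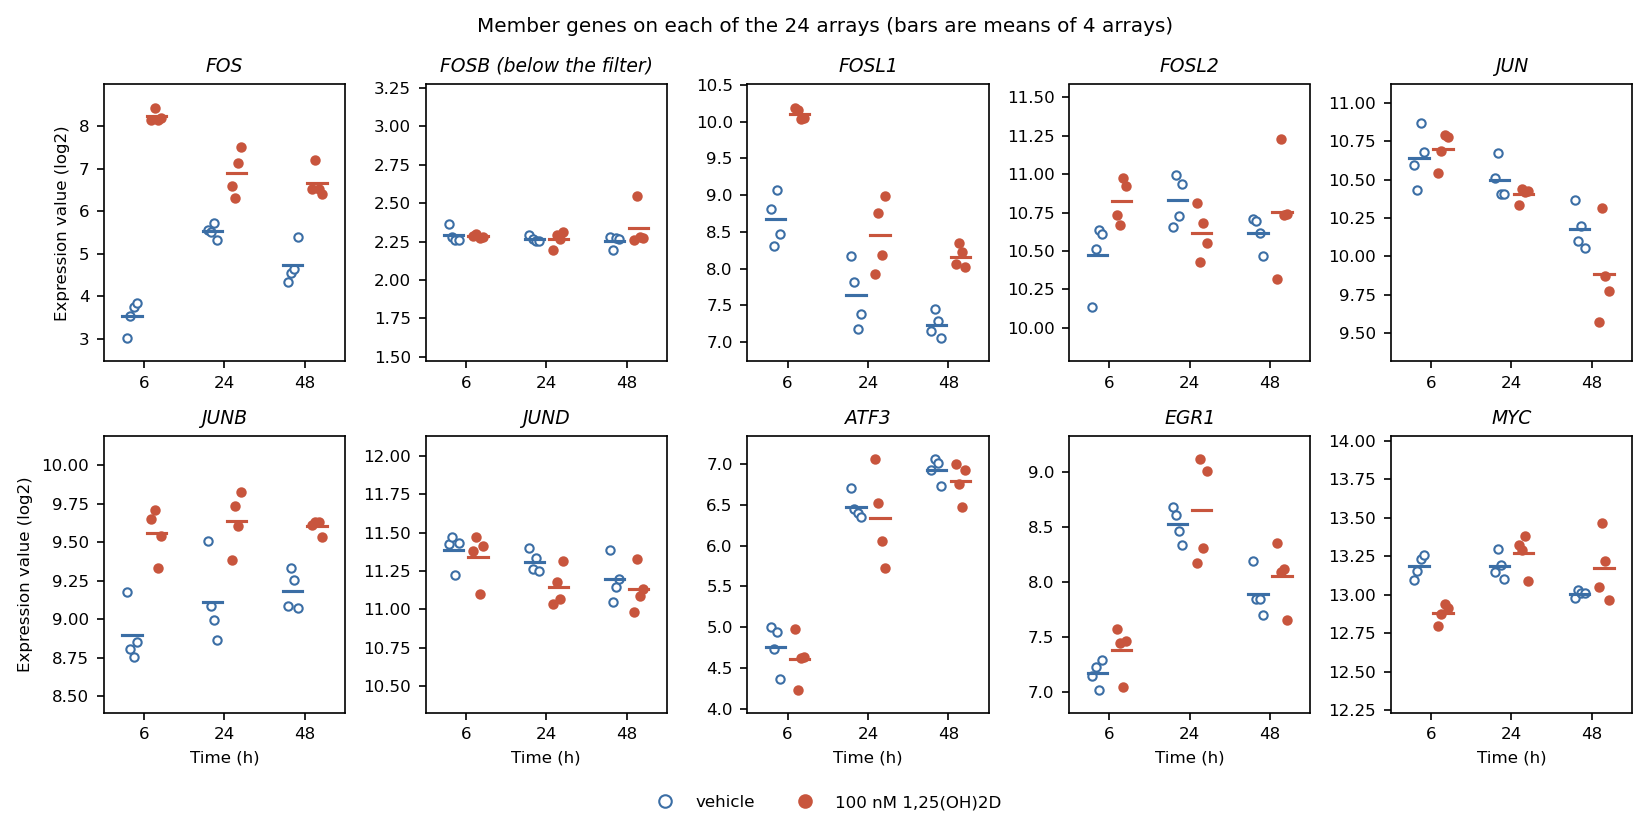
Expression values (log2, each panel on its own scale) of the 10 member genes on every array by time in hours, with open circles for vehicle, filled circles for 1,25(OH)2D and bars for the means of 4 arrays. FOS with 1,25(OH)2D at 6 h lies at 8.14 to 8.44, far above vehicle at 3.02 to 3.86, while ATF3 and EGR1 differ by time and overlap between treatments.

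FOS, the founding Fos protein, was near the bottom of the scale in vehicle cells at 6 h and high in treated cells. At 6 h the vehicle arrays read 3.02, 3.55, 3.74 and 3.86 and the treated arrays 8.15, 8.44, 8.14 and 8.19 (log2). At 24 h the vehicle arrays read 5.57, 5.51, 5.71 and 5.32 and the treated arrays 6.59, 6.32, 7.14 and 7.50. At 48 h the vehicle arrays read 4.34, 4.55, 4.63 and 5.40 and the treated arrays 6.52, 7.20, 6.51 and 6.41. At each time every treated array was above every vehicle array. The difference was 4.69 at 6 h (SE 0.18, adjusted p = 9.26e-06), 1.36 at 24 h (SE 0.26, adjusted p = 0.113) and 1.93 at 48 h (SE 0.26, adjusted p = 0.00326), or 25.8-fold, 2.57-fold and 3.81-fold. Without the arrays that stand apart, at 24 h vehicle replicate 1 and treated replicates 1 and 4, the 24 h difference was 1.21 and passed the test (adjusted p = 0.0383). In that setting, where arrays were left out for their deviations in these same data, 24.8% of all genes were called. Since vehicle cells at 6 h were close to the lowest value kept by the filter, 3.20, the size of the 6 h difference depends on how low values are treated, and with 32 added on the linear scale it was 2.92 at 6 h and 1.18 at 48 h, still past the test. In bulk samples a change in the share of cells that express a gene and a change in RNA per cell cannot be told apart.

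The effect on FOS was smaller at later times. Tested as a difference of differences over all 24 arrays, it was lower by 3.33 at 24 h than at 6 h (log2 difference -3.33, SE 0.35, adjusted p = 4.59e-06) and lower by 2.76 at 48 h (log2 difference -2.76, SE 0.35, adjusted p = 5.03e-05). With 32 added on the linear scale these were -1.97 and -1.74. FOS was the 1 member called for 24 h against 6 h, where 2.84% of all genes were called, and 1 of 2 members for 48 h against 6 h, where 3.71% were.

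FOSB, the closest relative of FOS, gave no signal to follow. Its probe set lay between 2.20 and 2.55 on all 24 arrays, below the lowest value kept, and was not tested. The highest array, at 2.55, was a 1,25(OH)2D array at 48 h.

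FOSL1, the Fos-related factor Fra-1, was well expressed in vehicle and higher with hormone. At 6 h the vehicle arrays read 8.81, 8.31, 9.07 and 8.48 and the treated arrays 10.19, 10.17, 10.03 and 10.04. At 24 h the vehicle arrays read 8.18, 7.81, 7.18 and 7.39 and the treated arrays 7.92, 8.76, 8.18 and 8.99. At 48 h the vehicle arrays read 7.15, 7.44, 7.28 and 7.05 and the treated arrays 8.06, 8.35, 8.23 and 8.01. The groups did not overlap at 6 and 48 h but did at 24 h. The difference was 1.44 at 6 h (SE 0.16, adjusted p = 0.00252, 2.71-fold), 0.83 at 24 h (SE 0.30, adjusted p = 0.511) and 0.93 at 48 h (SE 0.11, adjusted p = 0.00145, 1.91-fold). Against the 6 h effect, that at 24 h was different by -0.61 (95% interval -1.26 to 0.03) and that at 48 h by -0.51 (95% interval -1.15 to 0.14), neither past the test.

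FOSL2, the factor Fra-2, was read by 5 probe sets, all tested. At 6 h all 5 were higher with 1,25(OH)2D, by 0.28 to 0.48 (log2). In 4 of the 5 the treated arrays lay wholly above the vehicle arrays, a share not computed over all probe sets. The test passed for 1 of the 5, 218880_at, with 0.47 (SE 0.09, adjusted p = 0.0265), where vehicle arrays lay at 8.46 to 8.68 and treated arrays at 8.89 to 9.06. The brightest, 228188_at, which stands for the gene, gave 0.35 (SE 0.14, adjusted p = 0.401). At 24 h the 5 probe sets gave -0.21 to 0.12 and at 48 h -0.01 to 0.23, with no call. The mean of the 5 gave 0.39 at 6 h and passed (adjusted p = 0.0411). Probe sets of 1 gene on the same arrays are not replicates.

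JUNB, a Jun protein that activates less strongly than JUN, rose by small amounts. At 6 h the vehicle arrays read 9.18, 8.81, 8.75 and 8.85 and the treated arrays 9.65, 9.71, 9.34 and 9.54. At 24 h the vehicle arrays read 9.51, 9.08, 8.99 and 8.87 and the treated arrays 9.38, 9.74, 9.61 and 9.83. At 48 h the vehicle arrays read 9.08, 9.33, 9.25 and 9.07 and the treated arrays 9.61, 9.63, 9.64 and 9.53. The groups were apart at 6 and 48 h, and at 24 h vehicle replicate 1 lay within the treated range. The difference was 0.66 at 6 h (SE 0.13, adjusted p = 0.0337, 1.58-fold), 0.52 at 24 h (SE 0.16, adjusted p = 0.410) and 0.42 at 48 h (SE 0.07, adjusted p = 0.00826, 1.34-fold). Vehicle replicate 1 at 24 h is among the arrays that stand apart, as are treated replicates 1 and 4 at 24 h. Without those arrays the 24 h difference was 0.69 and passed (adjusted p = 0.0172), among 24.8% of all genes called in that setting. The 6 h call was close to the threshold. It was lost on leaving out any 1 of 6 of the 8 arrays (vehicle replicates 2, 3 and 4 and treated replicates 1, 2 and 4), with differences of 0.61 to 0.67, and also with no filter, a second quantile normalization or median centring (adjusted p = 0.0574, 0.0698 and 0.220). The 48 h call was lost with all 24 arrays in one fit (adjusted p = 0.0876).

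**Figure D2:**
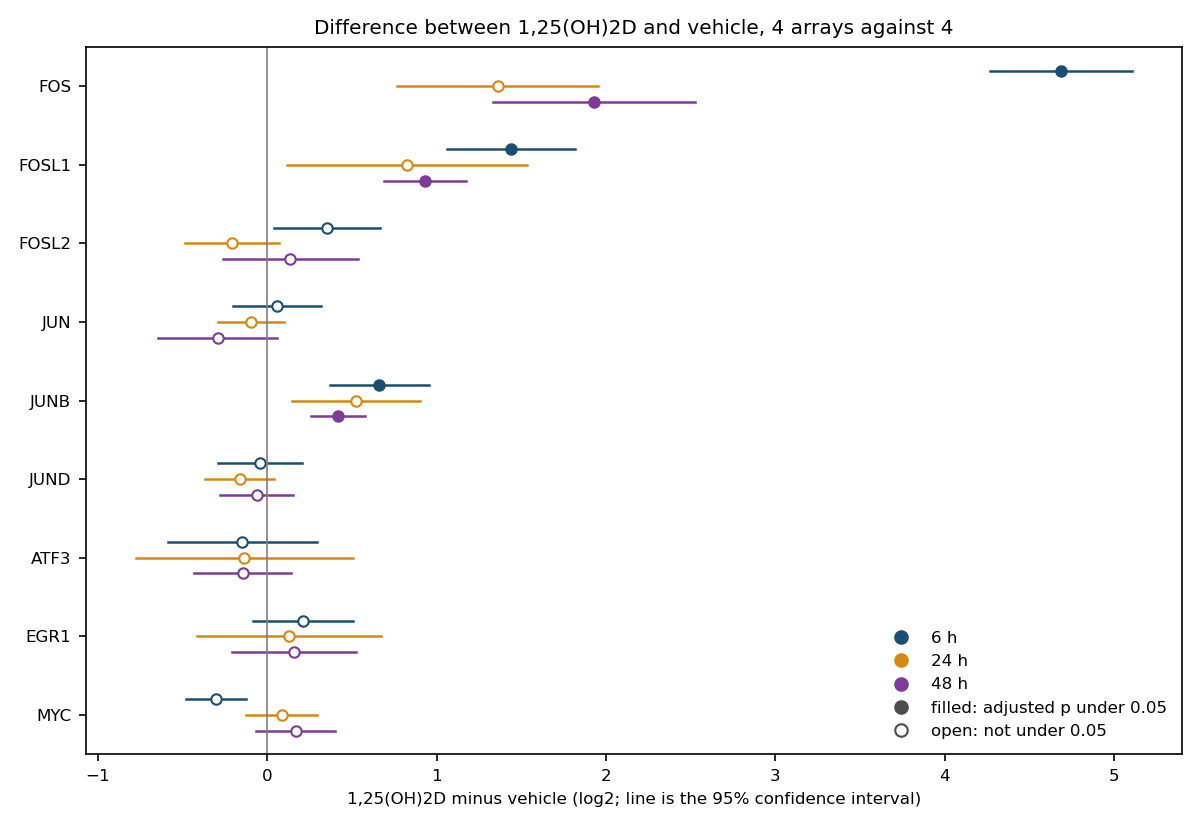
Difference between 1,25(OH)2D and vehicle (log2, horizontal axis) for the 9 tested members at 6, 24 and 48 h, each from 4 arrays against 4, with 95% confidence intervals and filled points where the adjusted p was under 0.05. FOS, FOSL1 and JUNB have filled points at 6 and 48 h, and the intervals of JUND, ATF3 and EGR1 include 0 at all times.

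JUN, the partner that Fos proteins most often use, showed no difference past the test at any time. Its 4 probe sets gave -0.02 to 0.06 at 6 h and -0.12 to 0.22 at 24 h. At 48 h all 4 were lower with 1,25(OH)2D, by -0.29 (201464_x_at, adjusted p = 0.313), -0.60 (201466_s_at, adjusted p = 0.0513), -0.42 (213281_at, adjusted p = 0.138) and -0.75 (201465_s_at, adjusted p = 0.0586). For 201466_s_at the treated arrays at 48 h lay at 7.07 to 7.56 and the vehicle arrays at 7.70 to 8.32, without overlap, and for 201465_s_at at 6.01 to 6.97 and 6.97 to 7.18. For the brightest probe set, 201464_x_at, the 48 h vehicle arrays read 10.37, 10.10, 10.20 and 10.05 and the treated arrays 9.57, 10.32, 9.88 and 9.78, so treated replicate 2 lay among the vehicle arrays. Without that array the difference was -0.44 and passed the test (adjusted p = 0.0330), as did the mean of the 4 probe sets, at -0.52 (adjusted p = 0.0480).

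JUND, the Jun protein that many resting cells hold at a steady level, differed little. Its brightest probe set lay between 10.98 and 11.47 on all 24 arrays. The difference was -0.05 at 6 h (95% interval -0.29 to 0.20), -0.16 at 24 h (-0.37 to 0.04) and -0.06 at 48 h (-0.28 to 0.15). The other tested probe sets, 214326_x_at and 203751_x_at, gave -0.04 to 0.23, and 229117_s_at was at or below 1.82 throughout and was not tested.

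**Figure D3:**
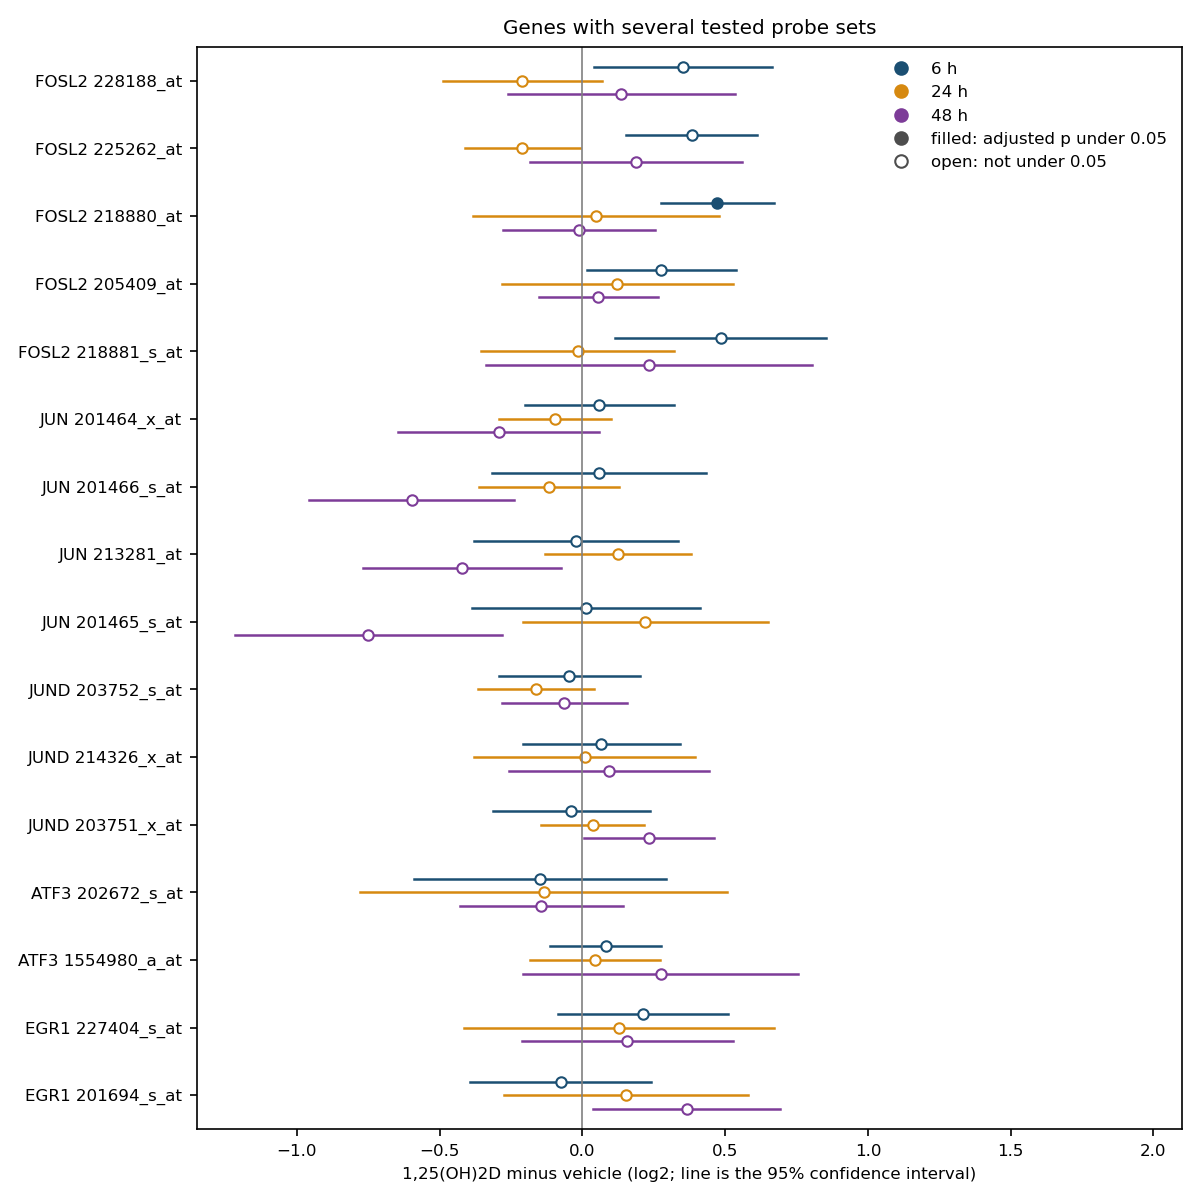
Difference between 1,25(OH)2D and vehicle (log2, horizontal axis) for each tested probe set of the 5 genes with more than one, at 6, 24 and 48 h, with 95% confidence intervals and filled points where the adjusted p was under 0.05. All 5 FOSL2 probe sets lie above 0 at 6 h and all 4 JUN probe sets lie below 0 at 48 h, and 218880_at of FOSL2 at 6 h is the filled point.

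ATF3 and EGR1 did not pass the test between treatments at any time. For ATF3, probe set 202672_s_at, the differences were -0.15 at 6 h (95% interval -0.59 to 0.29), -0.14 at 24 h (-0.78 to 0.51) and -0.14 at 48 h (-0.43 to 0.14), and for EGR1, probe set 227404_s_at, they were 0.21 (-0.09 to 0.51), 0.13 (-0.41 to 0.67) and 0.16 (-0.21 to 0.53). These intervals leave room for changes of that size. The dimmer tested probe sets, 1554980_a_at of ATF3 and 201694_s_at of EGR1, gave 0.04 to 0.27 and -0.08 to 0.36, with no call. The untested 1554420_at of ATF3 and 201693_s_at of EGR1 were at or below 2.06 and 2.45 on every array.

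MYC moved within a narrow range. At 6 h the vehicle arrays read 13.09, 13.15, 13.23 and 13.26 and the treated arrays 12.80, 12.87, 12.94 and 12.91. At 24 h the vehicle arrays read 13.15, 13.30, 13.19 and 13.10 and the treated arrays 13.32, 13.29, 13.38 and 13.09. At 48 h the vehicle arrays read 12.98, 13.03, 13.01 and 13.01 and the treated arrays 13.05, 13.46, 13.22 and 12.96. At 6 h every treated array was below every vehicle array, and at 24 and 48 h the groups overlapped. The difference was -0.30 at 6 h (SE 0.08, adjusted p = 0.115), 0.09 at 24 h (SE 0.09, adjusted p = 0.620) and 0.17 at 48 h (SE 0.10, adjusted p = 0.399). The 6 h difference passed in 4 alternatives, with no filter (adjusted p = 0.0353), the offset (0.0253), limma's trend and robust options (0.0492) and SAM (q = 0.00570). The effect at 48 h was higher than that at 6 h by 0.47 (SE 0.12, adjusted p = 0.0433), which makes MYC the other member called for that contrast. That call was lost on leaving out any 1 of 13 of the 16 arrays (all but vehicle replicate 1 at 6 h and treated replicates 1 and 4 at 48 h), with values of 0.37 to 0.49.

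Several members changed between 6 and 24 h whether or not hormone was present, a step in which time since the medium was given also differed. In vehicle cells 4 of 9 members were called for 24 h against 6 h, against 8.97% of all genes, and with 1,25(OH)2D 5 of 9, against 19.4%. Fitted on the 8 vehicle arrays alone, a setting added after seeing the data, 3 members were called among 590 genes in place of 1077. FOSL1 was lost there (adjusted p = 0.0638). With the replicate number as a block, which no label shows to pair these samples, the same 4 members were called, among 2184 genes. ATF3 rose by 1.71 in vehicle (SE 0.22, adjusted p = 3.55e-05, 3.27-fold) and by 1.72 with 1,25(OH)2D (SE 0.22, adjusted p = 1.27e-05, 3.30-fold). EGR1 rose by 1.35 in vehicle (SE 0.19, adjusted p = 9.18e-05, 2.55-fold) and by 1.27 with 1,25(OH)2D (SE 0.19, adjusted p = 8.35e-05, 2.41-fold). The treatments share no arrays in these contrasts, and the difference between the changes, hormone minus vehicle, was 0.01 for ATF3 (95% interval -0.63 to 0.66) and -0.08 for EGR1 (-0.64 to 0.47).

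The arrays of ATF3 and EGR1 show these steps. ATF3 read 5.01, 4.74, 4.94 and 4.37 in vehicle at 6 h and 6.71, 6.44, 6.40 and 6.35 at 24 h. With 1,25(OH)2D it read 4.98, 4.24, 4.62 and 4.63 at 6 h and 7.06, 6.52, 6.05 and 5.72 at 24 h. The groups of the same treatment did not overlap between these times, and at 48 h the ATF3 arrays lay at 6.73 to 7.06 in vehicle, and with hormone from 6.47 up to within that range. EGR1 read 7.14, 7.23, 7.02 and 7.29 in vehicle at 6 h and 8.69, 8.61, 8.47 and 8.34 at 24 h. With 1,25(OH)2D it read 7.57, 7.44, 7.04 and 7.46 at 6 h and 8.17, 9.11, 8.31 and 9.01 at 24 h. At 48 h EGR1 lay at 7.70 to 8.19 in vehicle and 7.65 to 8.35 with hormone. The second EGR1 probe set, 201694_s_at, rose by 1.02 in vehicle and 1.25 with hormone from 6 to 24 h, both called, whereas the dim ATF3 probe set 1554980_a_at gave 0.27 and 0.23, not called. With the mean of its probe sets ATF3 rose by 0.99 in vehicle and 0.98 with hormone, and with the offset by 1.03 and 1.01.

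FOS and FOSL1 changed with time in both treatments, FOS in opposite directions. From 6 to 24 h FOS rose by 1.99 in vehicle (SE 0.25, adjusted p = 3.05e-05, 3.97-fold) and fell by 1.34 with 1,25(OH)2D (log2 difference -1.34, SE 0.25, adjusted p = 9.00e-04). With the offset the rise in vehicle was 0.84. FOSL1 fell by 1.03 in vehicle (log2 difference -1.03, SE 0.22, adjusted p = 0.00469) and by 1.64 with 1,25(OH)2D (log2 difference -1.64, SE 0.22, adjusted p = 2.30e-05). MYC rose by 0.39 with 1,25(OH)2D (SE 0.09, adjusted p = 0.00458) and gave 0.00 in vehicle (95% interval -0.18 to 0.19). The difference between these changes is the contrast of effects given above, which passed the test for FOS and not for FOSL1 (-0.61, adjusted p = 0.444) or MYC (0.39, adjusted p = 0.139).

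The step from 24 to 48 h was read in the same way. In vehicle 0 of 9 were called by limma, against 0.425% of all genes, while 4 had an unadjusted p under 0.05. These were FOS at -0.80 (adjusted p = 0.218), JUN at -0.32 (0.400), EGR1 at -0.63 (0.185) and ATF3 at 0.46 (0.603). The share of all genes at that unadjusted p was not computed, so this count has no background to be read against. SAM was run for the treatment comparisons and not for this one. With 1,25(OH)2D JUN was called, against 2.43% of all genes, with a fall of 0.52 (log2 difference -0.52, SE 0.12, adjusted p = 0.0317) by 201464_x_at. Its probe sets 201466_s_at and 213281_at were called too, at -1.02 (adjusted p = 7.23e-04) and -0.70 (adjusted p = 0.0158), and 201465_s_at gave -0.66 (adjusted p = 0.102). In vehicle the same 4 JUN probe sets gave -0.32, -0.54, -0.15 and 0.31. The call for JUN was lost without the arrays that stand apart (-0.54, adjusted p = 0.0622) and on leaving out any 1 of 6 of the 8 treated arrays (replicates 2, 3 and 4 at 24 h and 1, 3 and 4 at 48 h), with values of -0.41 to -0.52. Without treated replicate 1 at 24 h, ATF3 (0.69, adjusted p = 0.0366) and EGR1 (-0.76, adjusted p = 0.0185) were called in this contrast too.

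**Figure D4:**
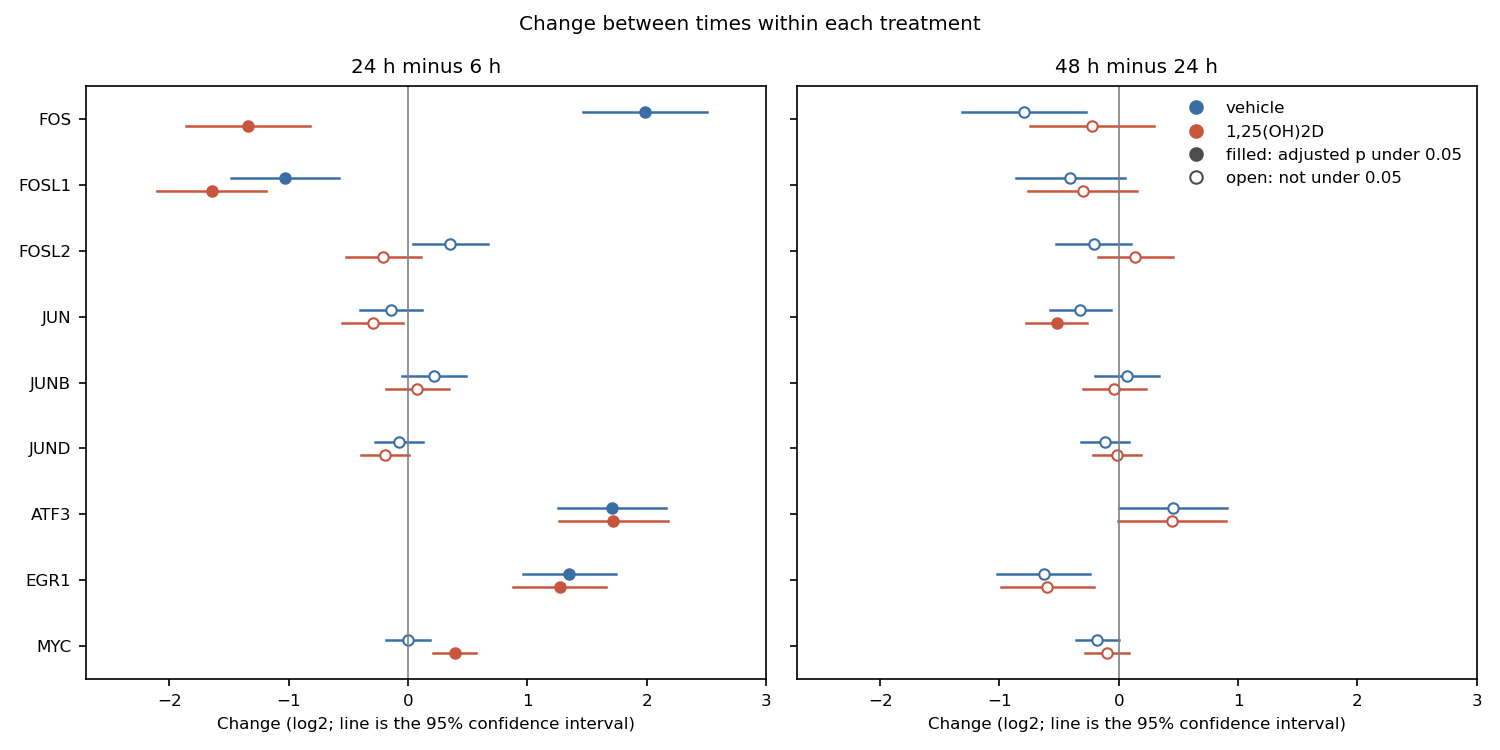
Change of the 9 tested members between times within each treatment (log2, horizontal axis), from 24 h minus 6 h on the left and 48 h minus 24 h on the right, with 95% confidence intervals and filled points where the adjusted p was under 0.05. ATF3 and EGR1 have filled points above 0 in vehicle and with 1,25(OH)2D on the left, FOS rises in vehicle and falls with 1,25(OH)2D, and JUN with 1,25(OH)2D is the filled point on the right.

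The order of the group means shows how differently the members used the same 6 groups. For FOS the order from low to high was vehicle at 6 h (3.54), vehicle at 48 h (4.73), vehicle at 24 h (5.53), then 1,25(OH)2D at 48 h (6.66), 24 h (6.89) and 6 h (8.23), with overlap between the arrays of neighbours for vehicle at 48 and 24 h and for treated cells at 48 and 24 h. For FOSL1 it was vehicle at 48 h (7.23), vehicle at 24 h (7.64), 1,25(OH)2D at 48 h (8.16) and 24 h (8.46), vehicle at 6 h (8.67) and 1,25(OH)2D at 6 h (10.11), where each of the first 5 overlapped with its neighbour. For ATF3 and EGR1 the groups fell into pairs by time, and each pair overlapped. The ATF3 pairs were 4.62 and 4.76 (6 h), 6.34 and 6.47 (24 h), and 6.79 and 6.93 (48 h). The EGR1 pairs were 7.17 and 7.38 (6 h), 7.90 and 8.05 (48 h), and 8.52 and 8.65 (24 h). The span of the 6 group means was 4.69 for FOS, 2.88 for FOSL1, 2.31 for ATF3 and 1.48 for EGR1, and from 0.26 (JUND) to 0.81 (JUN) for the other tested members.

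Genes whose 6 group means followed FOS most closely, among 2004 whose means spanned at least 1, were ABTB3 (r = 0.977), SEMA3F, a secreted semaphorin (r = 0.971), ELAPOR2 (r = 0.958), MCAM, a cell adhesion molecule (r = 0.957) and ECHDC3 (r = 0.953). The means of ABTB3 in vehicle were 3.44, 4.88 and 4.80 in order of time, and those with hormone 9.09, 7.15 and 7.63. For MYC, whose own means spanned 0.39, they were FOXA2 (r = 0.936), FAM117A (r = 0.886), WNT7A, a Wnt ligand (r = 0.856), SOX12 (r = 0.848) and EFNA3, an ephrin (r = 0.825), among 2005 genes. Each r is over 6 means from the same 24 arrays and describes likeness of pattern.

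Other genes of these pathways were read from 6 lists. Counts by SAM in these lists stand beside 968, 815 and 2022 of all 12008 genes called by SAM at 6, 24 and 48 h. The fit of all 24 arrays called 626, 330 and 581 of all genes. No share of all genes was computed for an unadjusted p under 0.05, so counts at that p have no background to be read against. Of 16 tested partners and related leucine zipper factors 4 rose at 6 h and 0 fell, against 2.37% of all genes upward and 1.04% downward. They were NFE2L2, the regulator of oxidative stress genes, at 1.42 (SE 0.22, adjusted p = 0.0126), CEBPB, a factor of epithelial and inflammatory genes, at 1.11 (SE 0.08, adjusted p = 1.71e-04), the small Maf protein MAFF at 0.98 (SE 0.17, adjusted p = 0.0194), and MAFG. At 24 and 48 h, where 0.516% and 12% of all genes were called, limma called 0 of the 16, with 3 and 6 at an unadjusted p under 0.05, and SAM called 2 and 3. The list had medians of 0.01, -0.12 and 0.02 in order of time, beside -0.03, 0.01 and -0.01 over all genes.

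Of 26 tested other immediate early genes 8 rose and 3 fell at 6 h, against 2.37% and 1.04% of all genes. The largest rises were GEM, a small GTP-binding protein, from 2.90 in vehicle to 7.16 (log2 difference 4.26), HBEGF, a ligand of the EGF receptor, from 5.71 to 8.61 (2.90), and EGR3, a relative of EGR1, from 3.38 to 5.76 (2.38). The vehicle means of GEM and EGR3 were near or under the lowest value kept, so their differences carry the same limit as that of FOS. The genes that fell were PHLDA1 (-1.39, adjusted p = 4.83e-04), IER3 (-1.21, adjusted p = 0.00476) and CCN1, a matrix protein. GEM and EGR3 gave 0.07 and 0.04 at 24 h and 0.05 and -0.01 at 48 h. At 24 h 2 genes of the list fell, CCN1 (-0.68) and RHOB (-0.73), and 0 rose, against 0.192% of all genes downward and 0.325% upward. In that comparison 9 genes of the list had an unadjusted p under 0.05, a share not computed over all genes. SAM called 9 genes of the list, against 815 of all 12008 genes, and the fit of all 24 arrays 7, against 330. At 48 h 4 rose and 8 fell, against 5.14% and 6.87% of all genes. HBEGF was still higher (1.38, adjusted p = 3.85e-04), with ZFP36, TRIB1 and GADD45A, and CCN2, a matrix protein, had the largest fall (-1.47, adjusted p = 5.37e-04). In the fit of all 24 arrays the 48 h calls of GADD45A (adjusted p = 0.473), KLF10 and BTG1 were lost. The medians of this list were 0.01, -0.16 and -0.05.

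Of 22 tested kinases and co-regulators upstream of AP-1 and EGR1 limma called 0 at 6 or 24 h, against 3.41% and 0.516% of all genes (3 and 2 at an unadjusted p under 0.05, 1 and 2 by SAM), and at 48 h 1 fell, MAP2K6, a kinase that activates p38, at -0.59 (SE 0.06, adjusted p = 0.00128), against 12% of all genes in either direction. That call was lost in the fit of all 24 arrays (adjusted p = 0.196). At 48 h 8 of the 22 had an unadjusted p under 0.05, a share not computed over all genes, and SAM called 3. The medians of this list were -0.05, -0.27 and -0.03. Of 13 tested MYC network partners limma called 0 at any time, against 3.41%, 0.516% and 12% of all genes (3, 1 and 4 at an unadjusted p under 0.05, 1, 0 and 1 by SAM), with medians of 0.04, 0.05 and 0.11.

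Of 16 tested AP-1 target genes 1 rose and 2 fell at 6 h, and 3 rose and 3 fell at 48 h. Of all genes 2.37% rose and 1.04% fell at 6 h, and 5.14% and 6.87% at 48 h. At 24 h limma called 0, against 0.516% of all genes, with 6 at an unadjusted p under 0.05 and 4 called by SAM. PLAU, the urokinase plasminogen activator, rose at 6 h by 1.56 (SE 0.11, adjusted p = 2.48e-04) and gave 0.01 and -0.06 later. EDN1, the precursor of endothelin, fell at 6 h (-2.06, SE 0.32, adjusted p = 0.0128) and at 48 h (-1.58, SE 0.15, adjusted p = 6.88e-04), as did IL6, an inflammatory cytokine (-1.44, adjusted p = 0.00174, and -1.06, adjusted p = 0.0219). The mean of IL6 with hormone was 3.38 at 6 h, near the lowest value kept, and 3.95 at 48 h. The size of its fall thus carries the limit given for FOS. SPRR1B and SPRR1A, small proline-rich proteins of the cornified envelope, rose at 48 h by 1.82 (adjusted p = 4.91e-04) and 1.28 (adjusted p = 0.0141), with PLAUR, the urokinase receptor, whose call was lost in the fit of all 24 arrays (adjusted p = 0.218). VIM, an intermediate filament protein, fell by 0.39 at 48 h (log2 difference -0.39, adjusted p = 0.0192). The medians were -0.02, -0.00026 and -0.03.

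Of 22 tested MYC target genes limma called 0 at 6 or 24 h, against 3.41% and 0.516% of all genes (5 and 8 at an unadjusted p under 0.05, 3 and 7 by SAM), and 5 rose and 0 fell at 48 h, against 5.14% and 6.87% of all genes. The 5 were TFRC, the transferrin receptor, at 1.18 (SE 0.15, adjusted p = 0.00239), SRM, which makes spermidine, at 0.59 (SE 0.12, adjusted p = 0.0227), NOP16, a nucleolar protein, at 0.48 (SE 0.06, adjusted p = 0.00162), RRS1 and HSPE1. At 48 h SAM called 8 genes of the list and the fit of all 24 arrays 3, with SRM (adjusted p = 0.0992) and HSPE1 (adjusted p = 0.418) lost. The medians were -0.10, 0.20 and 0.12. MYC itself did not pass the test at 48 h.

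**Figure D5:**
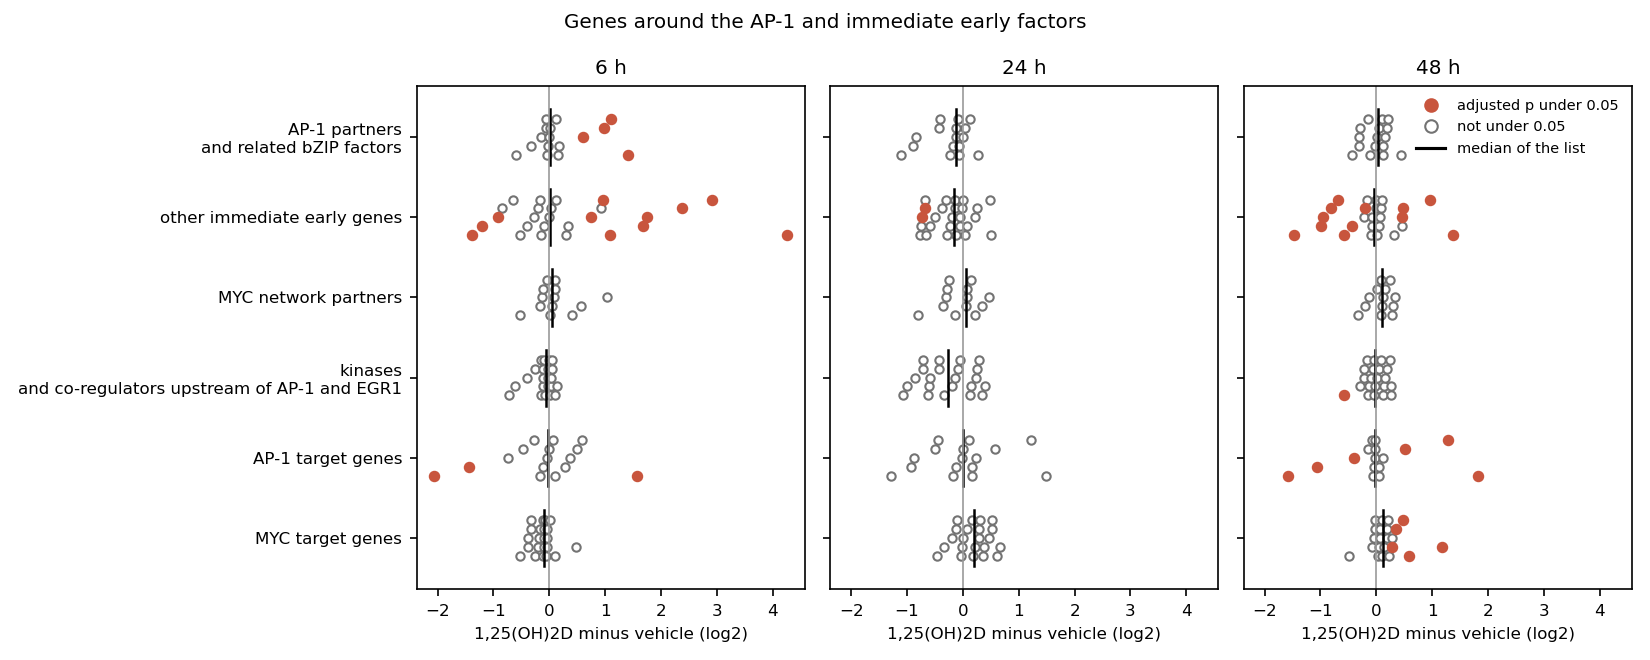
Difference between 1,25(OH)2D and vehicle (log2, horizontal axis) for the tested genes of 6 lists at 6, 24 and 48 h, with filled points where the adjusted p was under 0.05 and vertical lines at the list medians. At 6 h filled points lie on both sides of 0 among other immediate early genes, up to 4.26 for GEM, while MYC network partners have none at any time.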

How the data were processed

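RNA of 24 cultures was measured on Affymetrix U133 Plus 2.0 arrays. The authors ran gcRMA, which subtracts a modelled background, equalizes the arrays by quantiles and combines the probes of each probe set (GCRMA in the submitters' notes, version not given in the sources used here), and deposited log2 values. The lowest values are set by the background model, so low levels are compressed. All 24 columns of the table were used, and no 2 arrays shared over 0.0154% of values. Arrays have no read depth, so their number limits the precision. The mean SD within groups was 0.112 to 0.412 (log2).

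The 62 controls were left out. The 25986 probe sets ranked highest by the value that 3 of 4 arrays of a group reached were tested, a number taken from the study's methods, with 3.20 the lowest value. Each of 12008 genes was read from whichever of its tested single-symbol probe sets was brightest. Symbols came from the platform annotation, and none needed an update. Treated and vehicle arrays of each time were compared with limma 3.58.1 (lmFit, eBayes) in R 4.3.3, and the other contrasts came from one fit of all 24 arrays with 6 group means. limma was tested on simulated data. Promoter sequences are from RefSeq (GRCh38.p14). Python 3.11.15 (pandas 2.3.3, numpy 2.4.6, matplotlib 3.10.9) gave the tables and figures.

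The members and lists were chosen with earlier results of these data known. Named genes are the members, up to 3 rises and 3 falls per list among genes called at any time, and the 5 genes most like FOS and MYC. Other list genes are named where a count was 5 or fewer, after their values were seen. Alternatives were all 24 arrays in one fit, no filter, a stricter filter (15000), a second quantile normalization, median centring, 32 added before log2, the trend and robust settings of limma, SAM, a block for the replicate number, probe sets averaged by gene, each array left out, and, added after seeing the data, leaving out the 4 arrays that stand apart and fitting the 8 vehicle arrays of 6 and 24 h alone, with and without the block. Between those 2 vehicle groups, and between no other 2 groups, all 4 same-number pairs deviated together (correlation over 0.1). The numbers were used as a block there for that reason, a choice made from these same data, and no label pairs these samples.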

Additional observations from a re-analysis of the deposited data

Results flagged for a closer look

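Among 54 groups of 4 arrays examined for the 9 tested members, 4 had an array far from the other 3, where chance gives about 1 in 20 groups. For FOS the array of replicate 2 with 1,25(OH)2D was high at 6 h (8.44, the nearest at 8.19) and at 48 h (7.20, the nearest at 6.52). For JUN replicate 1 with 1,25(OH)2D at 24 h was low (10.33, the nearest at 10.42), and for JUND vehicle replicate 3 at 6 h was low (11.22, the nearest at 11.43). The effect of 1,25(OH)2D differed between times for FOS, by -3.33 (log2) at 24 h against 6 h and -2.76 at 48 h against 6 h, and for MYC, by 0.47 at 48 h against 6 h.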

How the results depend on the processing

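No member's called difference changed sign under any alternative run. The count of members called at 24 h, 0 in the main analysis and 0 on leaving out any 1 array, was 2 with all 24 arrays in one fit, 2 with SAM and 2 without the 4 arrays that stand apart. For the effect at 48 h minus 6 h the count of 2 became 1 with a second quantile normalization, 1 with median centring, and 1 to 2 on leaving out an array. For 1,25(OH)2D at 48 h against 24 h the count of 1 became 0 with no filter, 0 without the 4 arrays, and 0 to 3 on leaving out an array. The other 6 counts stayed within 1.5 times. On leaving out an array they were 2 to 3 at 6 h, 3 to 4 at 48 h, and unchanged at 1, 4, 0 and 5 for the effect at 24 h minus 6 h, vehicle 24 h against 6 h, vehicle 48 h against 24 h and 1,25(OH)2D 24 h against 6 h. The cause was not tested.

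The counts over all genes moved more. At 24 h 62 genes became 330 in one fit of all arrays, 815 with SAM, 30 with median centring, 2975 without the 4 arrays and 17 to 65 on leaving out an array. At 6 h 409 became 626 in one fit, 968 with SAM and 254 to 485 on leaving out an array, and at 48 h 1442 became 581 in one fit and 943 to 1992. For the effect at 24 h minus 6 h 341 became 634 without the 4 arrays and 240 to 578 on leaving out an array, and at 48 h minus 6 h 445 became 271 with median centring and 836 without the 4 arrays. For vehicle at 48 h against 24 h 51 became 80 with the offset, 439 without the 4 arrays and 22 to 73. With 1,25(OH)2D 2331 became 3592 without the 4 arrays and 1193 to 5343 for 24 h against 6 h, and 292 became 755 and 127 to 1038 for 48 h against 24 h. Median centring added 0.17 (log2) to every 24 h difference and 0.19 to every change with 1,25(OH)2D from 6 to 24 h, took 0.14 from that from 24 to 48 h, and moved the effect at 24 h minus 6 h by 0.18.

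With the replicate number as a block the members called were 3, 0 and 3 at 6, 24 and 48 h, 1 and 2 for the effect at 24 h and 48 h minus 6 h, and 4, 0, 5 and 1 for the changes over time, as without the block, while 0 genes were called at 24 h and 781 at 48 h. Samples of the same number and time deviated together with a correlation over 0.1 in 4 of 12 pairs (-0.889 to 0.756), so the numbers were not taken to pair treated with vehicle samples. For the vehicle arrays of 6 and 24 h the 4 same-number pairs had correlations of 0.823, 0.416, 0.268 and 0.633. There the numbers were used as a block, though no label says that they pair these samples. Replicate 1 stood apart in both groups (0.346 and 0.360 on the first component). Since deviations are taken from group means, the 4 correlations are not independent and do not establish a pairing. Fitted on those 8 arrays alone, a setting added after seeing the data, 4 members and 2184 genes were called with the replicate block and 3 members and 590 genes without it, against 4 and 1077 in the fit of all arrays. The call lost without the block was that of FOSL1 (adjusted p = 0.0638, and 0.0392 with the block).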
